A study of Mus musculus with 6 samples.

Results

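The IL-1, IL-18 and IL-33 system is described here through 9 genes: the ligands Il1a, Il1b, Il18 and Il33, the receptor antagonist Il1rn, the decoy receptor Il1r2, and the receptor chains Il18r1, Il18rap and Il1rl1. All 9 were found among the 31053 gene symbols of the deposited table. They were followed across the cell labels and libraries of a droplet-based single-cell mRNA-seq experiment on CD45+ bead-enriched cells from CT26 tumors, a mouse colorectal carcinoma line grown under the skin of wild-type Balb/c females. The labels of the series describe 6 tumors, 2 given vehicle and 2 at each of a low and a high dose of a bispecific molecule that joins an antibody against PD-1 to the ligand of GITR, with tumors taken 5 days after treatment. The sample labels give 30 mg/kg for both doses, while the treatment description gives 10 mg/kg for the low one. The paper of the authors names an isotype control for this experiment, not vehicle, and a bispecific dose that matches neither value. The table holds 4 libraries named M1, M2, M5 and M6, and no label ties a library to a tumor or a treatment. Libraries are therefore reported one by one, with tumor and condition unknown, and no treatment was compared and no p-value is given.

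Cytokines of this family share a signalling route. IL-1α and IL-1β bind the same receptor and IL-1RA, the product of Il1rn, occupies it without signalling, while IL-1R2 binds IL-1 but lacks the signalling domain. IL-1β and IL-18 are made as precursors that caspase-1 cuts inside inflammasomes, whereas IL-33 is a nuclear protein of stromal and barrier cells that is released on damage. IL-18 acts through a receptor of an IL-18-binding chain (Il18r1) and an accessory chain (Il18rap), best known on NK and T cells. IL-33 acts through ST2, the product of Il1rl1, known on mast cells, innate lymphoid cells and regulatory T cells.

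The receptor genes are neighbours. On the plus strand of chromosome 1 (GRCm38, GENCODE M21) lie, in this order, Il1r2 (40074079 to 40125231), Il1r1, Il1rl2, Il1rl1 (40429570 to 40465415), Il18r1 (40465552 to 40500854) and Il18rap (40515362 to 40551705). Only 136 bases separate the end of Il1rl1 from the start of Il18r1. The IL-1 ligand genes lie on the minus strand of chromosome 2, Il1a at 129299610 to 129309972 and Il1b at 129364570 to 129371139, and Il1rn is on the plus strand at 24336853 to 24351494. Il18 is on chromosome 9 (50554827 to 50581840) and Il33 on chromosome 19 (29925114 to 29960718), both on the plus strand. Antisense or other genes overlap parts of Il1a, Il1b, Il1r2 and Il18 in this annotation, and whether counting used the strand is not given in the sources used here.

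Il1rl1 has 2 RefSeq promoter windows (GRCm38.p6), and both are shown with those of Il1b and Il18rap as examples of genes highest in Stroma, in Myeloid cells and in NK cells. Each runs from 250 bases before to 50 after a start site, 5′ to 3′ on the strand of the gene. Capitals mark letters that match, on either strand, the core recognised by the zinc finger factors of the GATA family, the motif of C/EBP factors, that of PU.1 or the TATA box, none of which overlapped in these windows. The first Il1rl1 window is chr1:40429320-40429619, the second is chr1:40439379-40439678, that of Il1b is chr2:129371090-129371389 on the minus strand, and that of Il18rap is chr1:40515112-40515411.
Il1rl1 first window: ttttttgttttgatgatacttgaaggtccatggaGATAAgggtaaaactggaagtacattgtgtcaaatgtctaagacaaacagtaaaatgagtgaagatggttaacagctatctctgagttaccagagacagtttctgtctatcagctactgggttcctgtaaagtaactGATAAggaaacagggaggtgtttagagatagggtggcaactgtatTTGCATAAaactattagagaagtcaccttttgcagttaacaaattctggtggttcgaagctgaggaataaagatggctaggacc
Il1rl1 second window: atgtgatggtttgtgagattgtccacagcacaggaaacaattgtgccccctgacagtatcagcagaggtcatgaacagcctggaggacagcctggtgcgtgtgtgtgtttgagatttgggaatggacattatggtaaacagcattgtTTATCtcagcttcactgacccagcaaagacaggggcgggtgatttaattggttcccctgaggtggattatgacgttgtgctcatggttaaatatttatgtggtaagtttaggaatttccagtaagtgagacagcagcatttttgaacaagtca
Il1b window: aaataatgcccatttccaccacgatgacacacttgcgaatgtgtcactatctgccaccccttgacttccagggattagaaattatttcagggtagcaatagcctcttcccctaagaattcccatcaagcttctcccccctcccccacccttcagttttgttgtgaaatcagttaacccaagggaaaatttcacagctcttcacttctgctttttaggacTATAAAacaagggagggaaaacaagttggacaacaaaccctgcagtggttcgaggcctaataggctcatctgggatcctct
Il18rap window: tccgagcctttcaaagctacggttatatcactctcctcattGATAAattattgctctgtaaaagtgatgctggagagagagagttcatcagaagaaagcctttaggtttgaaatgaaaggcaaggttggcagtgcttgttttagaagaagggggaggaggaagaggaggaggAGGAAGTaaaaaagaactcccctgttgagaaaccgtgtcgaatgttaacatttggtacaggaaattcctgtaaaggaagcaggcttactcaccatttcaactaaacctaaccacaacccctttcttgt
The first Il1rl1 window held 3 matches, the GATA core at 216 and at 79 bases before the start site and a C/EBP match at 34 bases before it. The second held 1, a GATA match on the opposite strand. The Il1b window held a TATA box match 31 bases before the start, and the Il18rap window a GATA and a PU.1 match. In the RefSeq table of 32851 windows, the GATA core, searched as GATAA, was held by 25.4% of all windows. The motif of C/EBP, searched as TTGCNNAA, was held by 10.8%. That of the myeloid and lymphoid factor PU.1, searched as AGGAAGT, was held by 9.35%. The box bound by the general transcription machinery, searched as TATAAA, was held by 13.6%. A further pair of motifs was searched over the 15 windows of the 9 genes: the NF-kB motif (GGG, any 3 bases, TTCC) was found in 3, all of them windows of Il1rn, a pair of which overlap and share 1 site, against 5.55% of all windows, and TGANTCA (AP-1) in 2 against 7.81%. These are matches of letters and say nothing of binding.

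The table holds 33961 cells, 7160 to 10294 per library, with 158337797 to 315577167 UMIs, that is, transcript ends counted once each. Levels are in CPM, UMIs per 1000000 UMIs of all genes over the cells of a label, and need no scaling by length because 3′ chemistry counts each transcript at its end. In bulk sums of this kind fewer positive cells and fewer transcripts per cell cannot be told apart. For this reason shares of cells with a UMI are also given, after each cell was thinned to 2000 UMIs, since the median depth ran from 2811 UMIs in B cells to 40692 in Stroma. Values of single libraries follow in the order M1, M2, M5 and M6 unless named. Intervals in brackets are exact 95% intervals and cover counting error only. Cell labels are those of the authors, and 10 of 12 have at least 100 cells. Several go against their markers. Stroma, 15687 cells from a CD45+ enrichment, carried a UMI of Ptprc, which encodes CD45, in only 1.57% of thinned cells and 2 or more fibroblast genes in 12.7%. In ILC, 10.8% carried 2 or more helper innate lymphoid genes and 59.2% 2 or more NK cell genes. In the labels NKT and T cells, 52.0% and 68.7% carried 2 or more genes of a regulatory T cell list. In DC, 51.8% carried Ptprc, beside 59.9% of Myeloid cells, and 29.9% carried 2 or more genes of a monocyte list. Lists of dendritic cell classes were carried by fewer DC, with 4.82% for cDC1, 2.23% for cDC2 and 15.0% for migratory DC. The names below are those of the labels and not a statement of cell type. Finally, 111 barcodes occurred in more than 1 library, on 222 cells.

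Il1b, the main secreted IL-1 of inflammation, was the most abundant of the 9 genes with 241842 UMIs, followed by Il1rl1 with 200776, and Il18 was the scarcest with 2072. Of the 9 genes, 6 stood at least 2-fold above the next label in their leading label, 5 of the 8 that reached 20 CPM in a label. Il1r2 passed only just and Il1rl1 missed it with a log2 ratio of 0.89, and both changed sides when 1 library was left out. Over all 8144 genes of at least 20 CPM in a label, 15.1% did so. The median log2 ratio of leading to next label was 1.18 for those 8 genes and 0.26 for all genes. Il1a, Il1b, Il1rn and Il18 were highest in Myeloid cells, Il1r2 in DC, Il18r1 in T cell MEM, Il18rap in NK cells, and Il33 and Il1rl1 in Stroma.

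**Figure D1:**
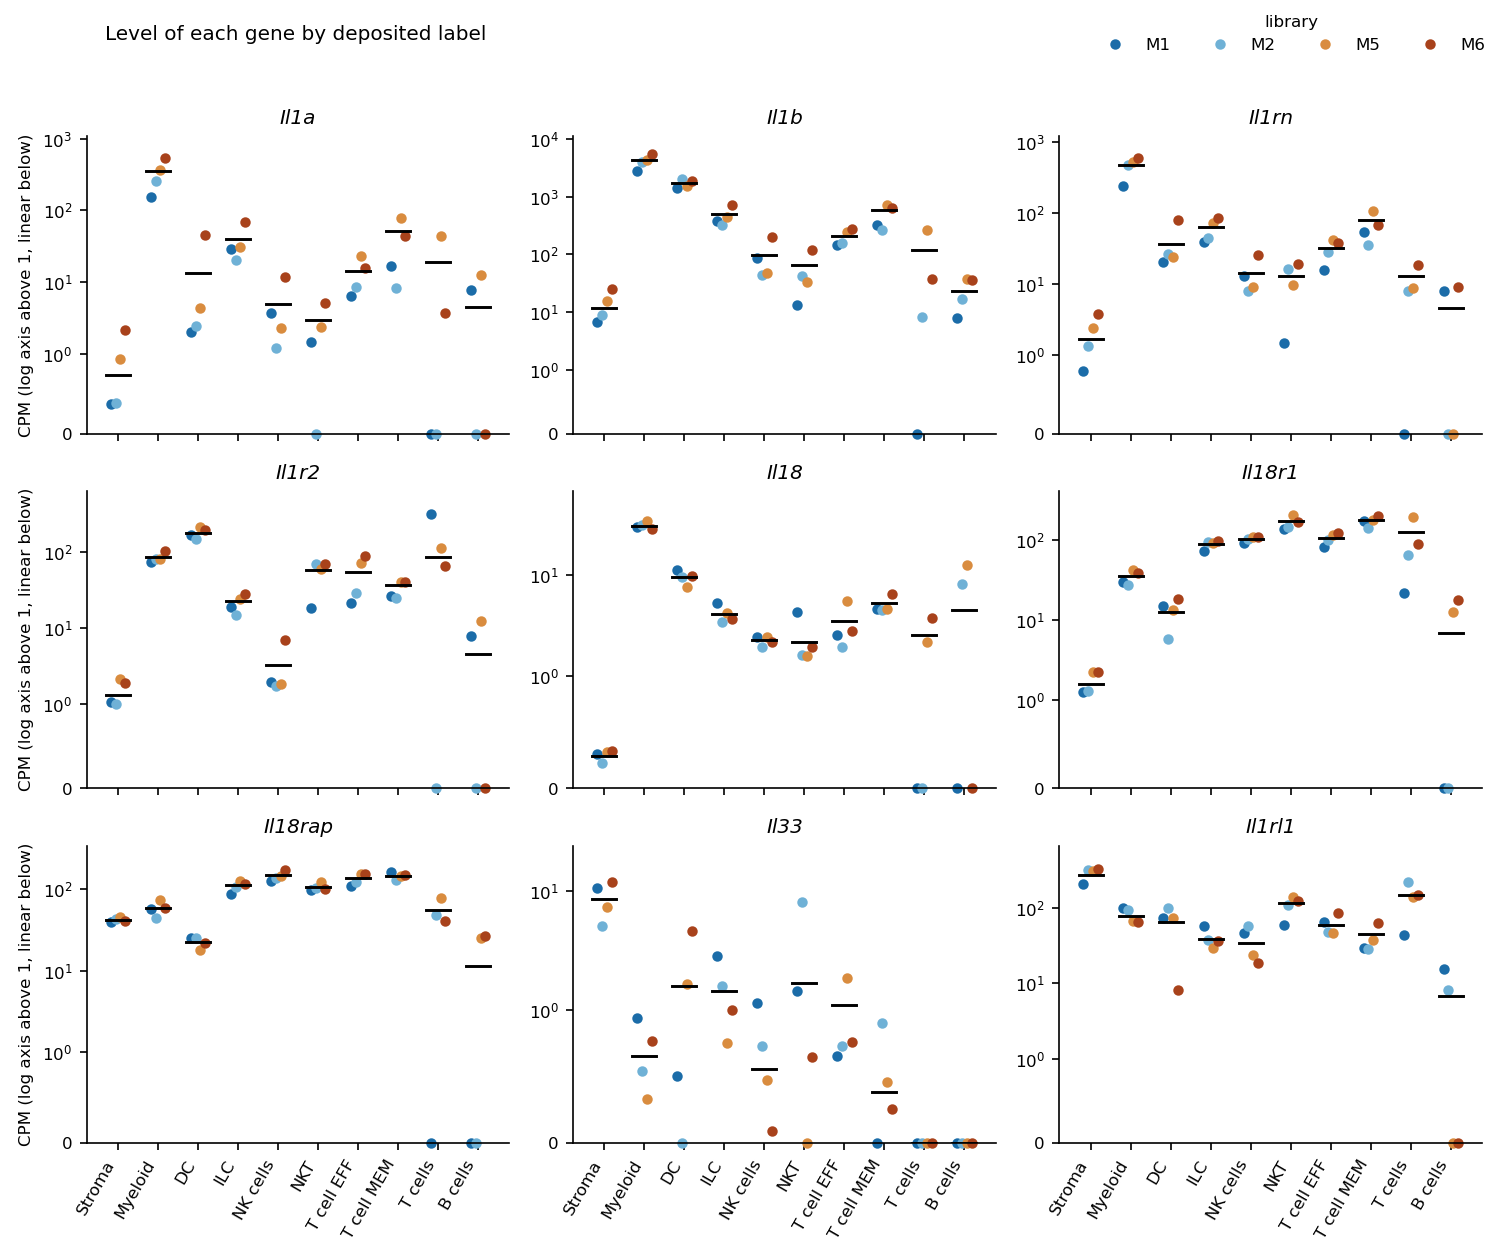
Level of each of the 9 genes (y axis, CPM, logarithmic above 1 and linear below) in the 10 labels of at least 100 cells (x axis), with 1 point per library and a bar for all cells of the label. Il1a, Il1b, Il1rn and Il18 peak in Myeloid, Il33 and Il1rl1 in Stroma, and the IL-18 receptor chains are spread over the lymphocyte labels.

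In Myeloid cells, Il1b had 2836, 3921, 4398 and 5537 CPM over the libraries, and 4348 in all cells together. The next label, DC, had 1413, 1986, 1554 and 1846 CPM, all below the lowest Myeloid value. The log2 ratio of Myeloid to DC was 1.34, with 0.98 to 1.58 in the 4 libraries. After thinning, 68.7% of Myeloid cells (66.9 to 70.5%) and 46.4% of DC (42.1 to 50.7%) had an Il1b UMI. Every other label lay lower, from 588 CPM in T cell MEM and 491 in ILC to 11.5 in Stroma.

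Il1a, which encodes the IL-1 that can act from the cell membrane, followed the same label but not DC. Its Myeloid level was 154, 254, 368 and 536 CPM over the libraries, against 8.16 to 78.6 in T cell MEM, the next label, so the libraries of the 2 labels did not overlap. In DC it had 2.03, 2.48, 4.40 and 46.0 CPM, so that M6 stood apart. Of Myeloid cells, 24.7% (23.1 to 26.5%) had an Il1a UMI, against 0.928% of DC.

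Il1rn had 233, 474, 517 and 591 CPM in the Myeloid cells of M1, M2, M5 and M6. T cell MEM was next with 34.4 to 106 CPM, and DC had 20.3, 26.1, 23.7 and 77.7. It was detected in 45.8% of Myeloid cells (43.8 to 47.7%) and 4.45% of DC. The balance of agonist and antagonist transcripts differed between the 2 labels. There were 9.24 Il1b UMIs per Il1rn UMI in Myeloid cells, 8.28 to 12.2 in the libraries, and 47.0 in DC. The DC libraries had 69.6, 76.2, 65.6 and 23.8, all above the Myeloid ones, and without M6, which stood apart, the DC value was 71.3. In Myeloid cells, 57.7% of those with an Il1b UMI also had one of Il1rn, against 19.7% of those without, and 34.9% against 2.38% had one of Il1a. This label mixes cell classes, as described below, and pairs were not counted within a class.

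Genes that led in Myeloid cells were also counted in other labels. As a gauge, 4 other genes of Myeloid cells (Lyz2, Cd14, Csf1r and Clec4n), a list set after values were seen, had 8.35 to 11.8% of their Myeloid level in ILC and 4.13 to 5.62% in T cell EFF. The Il1b level in ILC was 11.3% of that in Myeloid cells and in T cell EFF 4.82%, inside these ranges, while Il1rn had 13.5% and 6.74%, slightly above them. In T cell MEM the IL-1 genes lay above the 7.42 to 12.4% of the list, with 14.5% for Il1a, 13.5% for Il1b and 16.8% for Il1rn, and 5 cells held 60.3% of the Il1a UMIs of that label. The ranges rest on 4 genes, and 1 of them, Clec4n, was among the genes closest to Il1b in pattern (r = 0.93). The ranges are thus not independent of Il1b, and nothing is read from its place inside them. No difference is read from values just outside them. In DC, Il1b reached 39.5% and Il18 31.0% of the Myeloid level against 8.07 to 19.7% for the 4 genes, whereas Il1a had 3.72% and Il1rn 7.76%. Il18, which is scarce, also lay above the ranges in ILC with 13.5%, in T cell EFF with 11.3% and in T cell MEM with 17.2%. Within ILC, 94.2% of the 103 cells with 2 or more neutrophil genes had an Il1b UMI, against 9.33% of the rest. Whether free RNA or doublets brought these transcripts was not tested.

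The Myeloid label mixes cell classes, and the IL-1 genes were not evenly spread over them. A list of 5 neutrophil genes (S100a8, S100a9, Csf3r, Cxcr2 and Retnlg) split off 430 of 2547 thinned Myeloid cells with 2 or more of them, and 192 of these carried exactly 2. Il1b was found in 96.7% of these cells (94.6 to 98.2%), against 63.0% (60.9 to 65.1%) of the other Myeloid cells. Il1rn was found in 75.6% against 39.7%, and Il1a in 38.1% against 22.0%. Il1b and Il1rn were higher in the neutrophil-list cells in all 4 libraries and Il1a in 3. The contrast was widest for the decoy receptor Il1r2, in 55.1% (50.3 to 59.9%) against 7.18% (6.12 to 8.36%), and 68.0% of the thinned Il1r2 UMIs of the label fell in these cells. Il18 differed little, 10.0% (7.33 to 13.2%) against 7.37% (6.29 to 8.57%). A macrophage list (C1qa, C1qb, C1qc, Mrc1, Adgre1 and Apoe), carried by 886 cells, went with less Il1b, 58.2% against 74.3%. A list of monocyte genes (Ly6c2, Ccr2, Plac8, Vcan and Fn1) went with more, 81.9% in its 1096 cells against 58.7%, higher in all 4 libraries, but it does not set a class apart here, since 51.0% of ILC and 26.9% of Stroma cells carried it beside 43.0% of Myeloid cells. The classes overlap, and 114 cells carried both the neutrophil and the macrophage list.

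**Figure D2:**
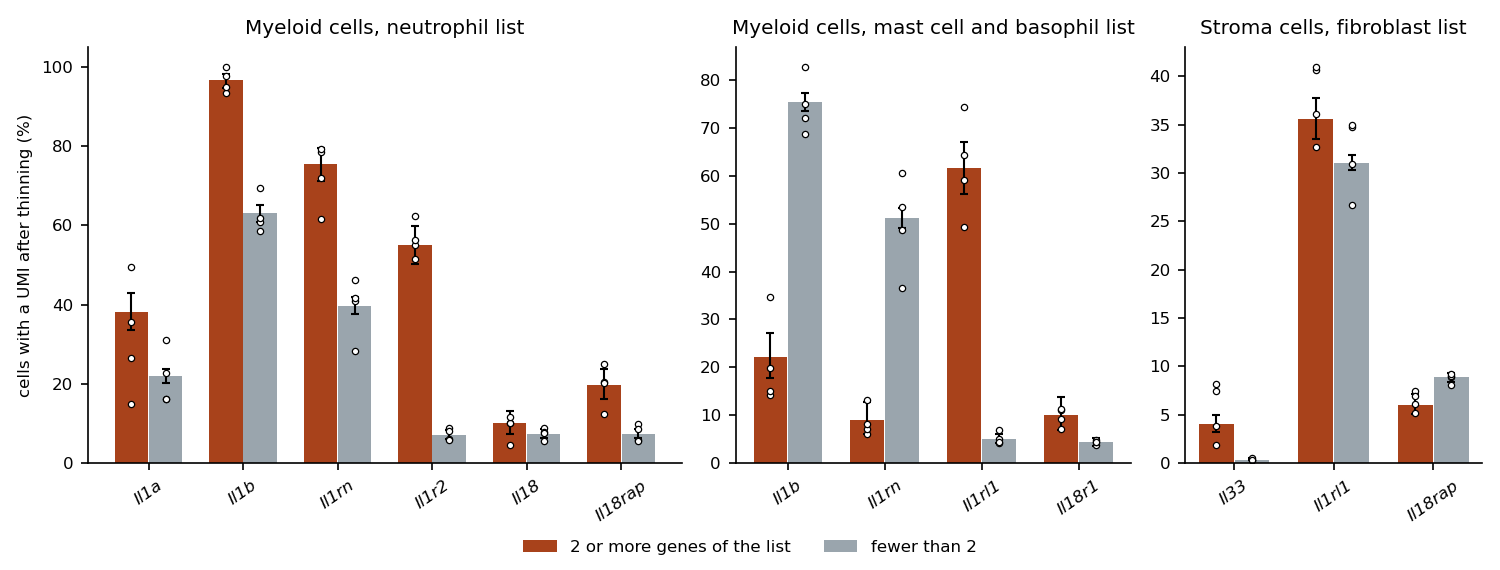
Share of thinned cells with a UMI (y axis, %) among cells that carry 2 or more genes of a marker list (red) or fewer (grey), in Myeloid cells for the neutrophil list and for the mast cell and basophil list, and in Stroma for the fibroblast list. Bars are all cells, lines exact 95% binomial intervals and open points the 4 libraries. Il1r2 stands at 55.1% against 7.18% on the neutrophil list, Il1rl1 at 61.7% against 5.08% on the mast cell list and Il33 at 4.02% against 0.366% on the fibroblast list.

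Il1a, Il1b and Il1rn levels in Myeloid cells were lowest in M1 and highest in M6, and the share of cells with the neutrophil list went the same way, with 10.9%, 11.4%, 15.3% and 26.0%. Both were set side by side in thinned cells. With all Myeloid cells, the mean Il1b level was 4250, 5895, 6901 and 9130 CPM over the libraries. Without the neutrophil-list cells it was 3751, 4682, 5255 and 5532 CPM, in the same order over a narrower range. Il1a without these cells was 212, 317, 449 and 516 CPM. Il1rn was 290, 544, 528 and 569, with M1 apart from the other libraries. In the neutrophil-list cells themselves, Il1b went from 8325 CPM in M1 to 19351 in M6. Which treatment each library had is unknown.

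**Figure D3:**
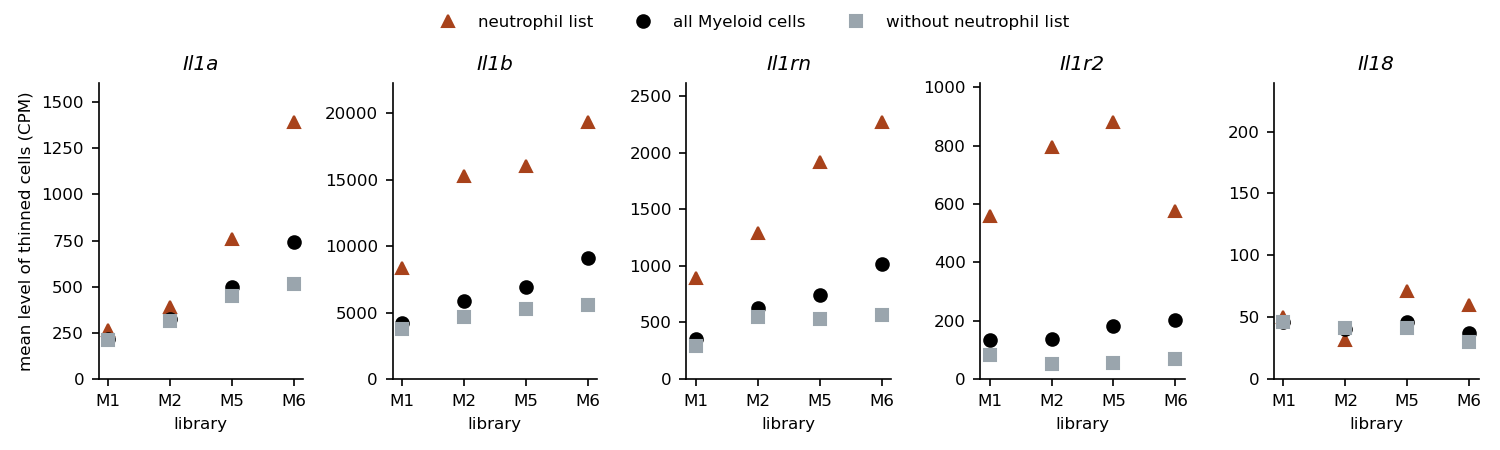
Mean level (y axis, CPM of cells thinned to 2000 UMIs) of 5 genes in the Myeloid cells of each library (x axis), for all cells (black circles), cells with 2 or more neutrophil genes (red triangles) and the remainder (grey squares). Il1b reaches 19351 CPM in the neutrophil-list cells of M6, and without such cells runs from 3751 CPM in M1 to 5532 in M6.

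Il1r2 led in DC, with 169, 152, 216 and 195 CPM in M1, M2, M5 and M6, against 75.4 to 104 in Myeloid cells, and did not overlap with them. The log2 ratio was 1.03, 0.88 to 1.39 in the libraries, and it fell under 2-fold without cells of high doublet score (0.94), without M5 (0.91) and marginally without M1. In M1 the label T cells had 322 CPM, but it held only 11 cells of that library. At equal depth the 2 labels were close. After thinning, 17.4% of DC (14.3 to 20.9%) and 15.3% of Myeloid cells (13.9 to 16.7%) had an Il1r2 UMI, intervals that overlap. Mean levels of thinned cells were 189 CPM in DC and 168 in Myeloid cells. In DC, Il1r2 went with Il1b. It was found in 29.6% (24.0 to 35.7%) of the 250 DC with an Il1b UMI. Of the 289 DC without, 6.92% (4.28 to 10.5%) had it, and the share was lower in all 4 libraries. Neutrophil genes were rare in DC, in 8 of 539 cells, and without those 8 cells 17.3% had Il1r2. Cells with a migratory DC list (Ccr7, Fscn1 and Ccl22) had it in 9.88% (4.36 to 18.5%), against 18.8% (15.3 to 22.7%) of the other DC, intervals that overlap.

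T cells also carried Il1r2. T cell EFF had 21.5, 29.4, 73.3 and 89.4 CPM in M1, M2, M5 and M6, so M5 and M6 lay above M1 and M2, and 7.73% (6.87 to 8.66%) of thinned cells had a UMI. NK cells had 1.71 to 7.02 CPM and 0.616%. Because T cell EFF also held UMIs of neutrophil genes, the share was counted again, a step added after values were seen. The cells counted were T cell EFF cells with Cd8a or Cd8b1 and, after thinning, no UMI of Lyz2, Il1b or the neutrophil list. Of these 2282 cells 6.88% (5.88 to 8.0%) had an Il1r2 UMI, and of 3380 NK cells with none of these UMIs 0.118% (0.0323 to 0.303%). Thinning hides part of such UMIs, since 18.4% of T cell EFF cells had Il1b at full depth against 7.11% after it. Cells with myeloid transcripts were therefore not all removed. Among all thinned cells with a CD3 chain, Il1r2 was found in 11.3% (8.80 to 14.3%) of 547 with Foxp3, the regulatory T cell factor, in 9.19% (6.45 to 12.6%) of 370 with Cd4 alone, and in 6.85% (6.10 to 7.67%) of 4100 with Cd8a or Cd8b1.

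Il18 was scarce. In Myeloid cells it had 30.2, 31.1, 34.0 and 28.9 CPM in M1, M2, M5 and M6, a narrow range unlike that of Il1a and Il1b. DC followed with 7.71 to 11.2 CPM, below every Myeloid value, and the log2 ratio was 1.59. It was found in 7.81% (6.80 to 8.92%) of thinned Myeloid cells, and this count is limited by depth, since 27.5% had a UMI with no thinning. In Stroma it had 0.285 CPM. Cells with the mast cell list had it in 2.80% against 8.54% of the others, lower in all 4 libraries.

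The IL-18 receptor chains were carried by the T and NK cell labels, and B cells held only 3 UMIs of Il18r1 and 5 of Il18rap. Il18r1 was highest in T cell MEM, at 174, 140, 175 and 197 CPM in the 4 libraries, and in NKT, at 137, 144, 204 and 168. These overlap, each label led in 2 libraries, and the log2 ratio was 0.08. The label T cells followed with 125 CPM, 21.5 to 194 in the libraries, T cell EFF with 105, NK cells with 104 and ILC with 88.3. Il18rap was 126, 136, 147 and 170 CPM in NK cells and 163, 130, 144 and 150 in T cell MEM, ranges that overlap. It was followed by 137 in T cell EFF, 111 in ILC, 107 in NKT and only 54.7 in T cells, below the 59.2 of Myeloid cells. The Myeloid label is mixed here, since 17.2% of its thinned cells carried 2 or more T cell genes and 4.99% 2 or more NK cell genes. After thinning, 33.5% of NK cells (32.1 to 34.9%) had Il18rap and 25.7% (24.3 to 27.0%) Il18r1. In T cell MEM it was the other way round, 22.0% and 29.3%.

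Il18rap was more frequent in cells with an Il18r1 UMI, with intervals apart, in 3 labels. In NK cells, 42.3% (39.4 to 45.3%) of the cells with an Il18r1 UMI also had one of Il18rap, against 30.5% (28.8 to 32.1%) of those without. In T cell EFF the shares were 32.5% and 22.5%, in ILC 32.3% and 21%, and in each of these labels the order held in all 4 libraries. In T cell MEM (23.6% and 21.4%) and NKT (18.2% and 16.5%) the intervals overlapped. All cells were thinned to the same depth.

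Stroma cells carried Il18rap with little Il18r1. Il18rap had 39.4, 43.6, 45.6 and 41.2 CPM in the Stroma of M1, M2, M5 and M6, and this label held 53.7% of all Il18rap UMIs, less than its 75.6% of the UMIs of all genes. Il18r1 had only 1.23, 1.29, 2.22 and 2.24 CPM there. The ratio of Il18rap to Il18r1 was 27.1 in Stroma, 18.4 to 33.9 in the libraries, and 1.42 in NK cells, 1.31 in T cell EFF, 1.26 in ILC, 0.82 in T cell MEM, 0.63 in NKT and 0.44 in T cells. In the thinned Stroma cells 8.50% (8.07 to 8.95%) had an Il18rap UMI and 0.358% (0.271 to 0.465%) one of Il18r1. With all UMIs, 63.3% of Stroma cells had Il18rap, with at most 23 UMIs in a cell, and 2296 cells held 50% of its Stroma UMIs. Cells of this label with 2 or more T cell genes were 57 of 15642, and without them the share was 8.50%. Il18rap was less frequent in the cells with the fibroblast list, 6.03% (5.02 to 7.17%) against 8.86% (8.39 to 9.35%), lower in all 4 libraries.

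**Figure D4:**
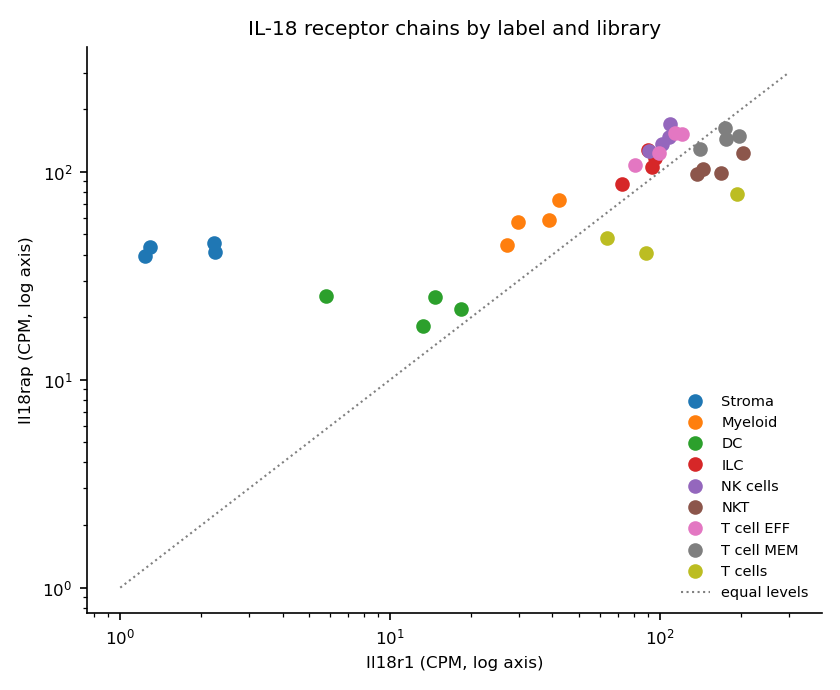
Level of Il18rap (y axis, CPM, log axis) against Il18r1 (x axis, CPM, log axis), 1 point per label and library, with the dotted line at equal levels. B cells and the T cells point of M1 are left out because 1 of the genes is at 0 there or the label is small. Lymphocyte labels lie near the line, and Stroma stands apart with 39.4 to 45.6 CPM of Il18rap at 1.23 to 2.24 CPM of Il18r1.

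Myeloid cells with the neutrophil list had a similar imbalance: 19.8% (16.1 to 23.9%) carried Il18rap, against 7.37% of other Myeloid cells, while Il18r1 was found in 3.49% (1.97 to 5.69%) against 5.38%. Il18rap was higher in the neutrophil-list cells in all 4 libraries and Il18r1 in none. Cells with the mast cell and basophil list carried Il18r1 in 9.97% (6.92 to 13.8%), against 4.36% (3.55 to 5.29%) of the others.

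Il33 was found mostly in Stroma, with 5937 of its 6164 UMIs (96.3%, against 75.6% for all genes), at 10.6, 5.03, 7.32 and 11.9 CPM in M1, M2, M5 and M6. It was found in few cells, 0.831% (0.695 to 0.986%) after thinning, and 24 cells held 50% of its Stroma UMIs with 65 to 310 UMIs each. All 24 carried 2 or more fibroblast genes, against 63.3% of the other Stroma cells at full depth. Their summed level of Col3a1, a fibrillar collagen, was 8435 CPM against 144, and of Pdgfra, which encodes a receptor of platelet-derived growth factor, 159 against 8.09. They came from all libraries, 12, 4, 2 and 6 cells. In thinned Stroma, 4.02% (3.20 to 4.98%) of the 1990 cells with the fibroblast list had Il33, against 0.366% (0.272 to 0.483%) of the others, and 79.8% of the thinned Il33 UMIs were in the former. Outside Stroma no label exceeded 1.70 CPM. The NKT value of 8.11 CPM in M2 was above that of Stroma in this library, but NKT held only 7 Il33 UMIs in 4 cells.

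Il1rl1, the receptor of IL-33, was highest in the same label and was spread over many more of its cells. It had 208, 312, 301 and 329 CPM in the Stroma of M1, M2, M5 and M6, and 94.2% of its UMIs lay there, against 75.6% for all genes. It was found in 31.7% (30.9 to 32.4%) of thinned Stroma cells and 78.7% with all UMIs, and 1688 cells held 50% of its Stroma UMIs. In the 24 cells with most Il33 it had 497 CPM, against 273 in the other Stroma cells. The fibroblast list made little difference, 35.6% against 31.1%, though higher in all 4 libraries. Of Stroma cells with an Il1rl1 UMI, 1.03% (0.768 to 1.35%) had Il33, against 0.739% (0.586 to 0.920%) of those without, intervals that overlap. Il18rap was found in 11.5% (10.7 to 12.5%) against 7.10% (6.62 to 7.60%), higher in all 4 libraries. The 5 protein-coding Il1rl1 transcripts of the annotation differ in their starts and ends, and gene counts do not tell membrane from soluble ST2 or 1 promoter window from the other.

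In Myeloid cells Il1rl1 belonged to the cells with mast cell and basophil genes. Of the 321 cells with 2 or more genes of that list, which includes Cpa3, Kit, Ms4a2 and Gata2, 61.7% (56.1 to 67.0%) had an Il1rl1 UMI, against 5.08% (4.20 to 6.07%) of the remaining 2226 Myeloid cells. The shares were 49.4 to 74.4% and 4.16 to 6.96% in the 4 libraries. These cells held 72.4% of the thinned Il1rl1 UMIs of the label. They were low in the IL-1 ligands, with Il1a in 5.30% against 27.5% and Il1b in 22.1% against 75.4%, and in the antagonist Il1rn, in 9.03% against 51.1%.

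Among lymphocytes Il1rl1 was highest in the labels T cells, at 42.9, 216, 137 and 149 CPM, and NKT, at 59.1, 107, 137 and 122 CPM, the labels with the largest share of cells carrying the regulatory T cell list. T cells held only 11 and 19 cells in M1 and M2. Of thinned cells with a CD3 chain and Foxp3, 21.2% (17.9 to 24.9%) had Il1rl1, against 11.6% (8.54 to 15.3%) of cells with Cd4 and no Foxp3 UMI and 4.27% (3.67 to 4.93%) of CD8 cells. Foxp3 was scored after thinning, so cells counted without it may still express it. Because genes that led in Stroma were also counted in other labels, 8 other genes of Stroma (Sparc, Col1a2, Cald1, Cav1, Tpm2, Fstl1, Serpinh1 and Col4a1), also a list set after values were seen, serve as a gauge. In NKT they had at most 11.1% and in T cells at most 15.6% of their Stroma level, where Il1rl1 had 41.7% and 53.9%. In NK cells Il1rl1 had 12.3%, against 3.27 to 9.51% for the list, and in ILC 14.3% against 6.19 to 11.6%, close to the highest gene of the list. In T cell MEM it had 16.5% against at most 4.16%, and in T cell EFF 21.7% against at most 13.8%. Myeloid cells had 28.5% against at most 18.6%, and DC 23.9% against at most 21.8%. The DC value rests on few cells, since 6 cells held 50% of the Il1rl1 UMIs of that label. In DC, M6 had 8.18 CPM against 72.1 to 100 in M1, M2 and M5. Only in B cells, at 2.48%, did Il1rl1 lie within the range of the list. Il33 also lay above the list in ILC with 16.9%, in NKT with 19.9% from 7 UMIs, and in T cell MEM with 4.48% from 4 UMIs. In the other labels Il33 lay within the range. Whether free RNA or doublets brought Il1rl1 or Il33 transcripts to these labels was not tested.

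Read along chromosome 1, several neighbouring genes had different leading labels. Il1rl1 had 273 CPM in Stroma and Il18r1 had 1.54. Il18r1 starts 136 bases after the end of Il1rl1 and 35982 bases after its start. In NK cells the order was reversed, with 33.7 CPM of Il1rl1 and 104 of Il18r1. Il18rap, 14507 bases after the end of Il18r1, had 41.8 CPM in Stroma and 147 in NK cells. At the other end Il1r2 had 181 CPM in DC, where Il1r1, the signalling IL-1 receptor, had 5.15, and in Stroma Il1r1 had 24.5 and Il1r2 1.32.

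**Figure D5:**
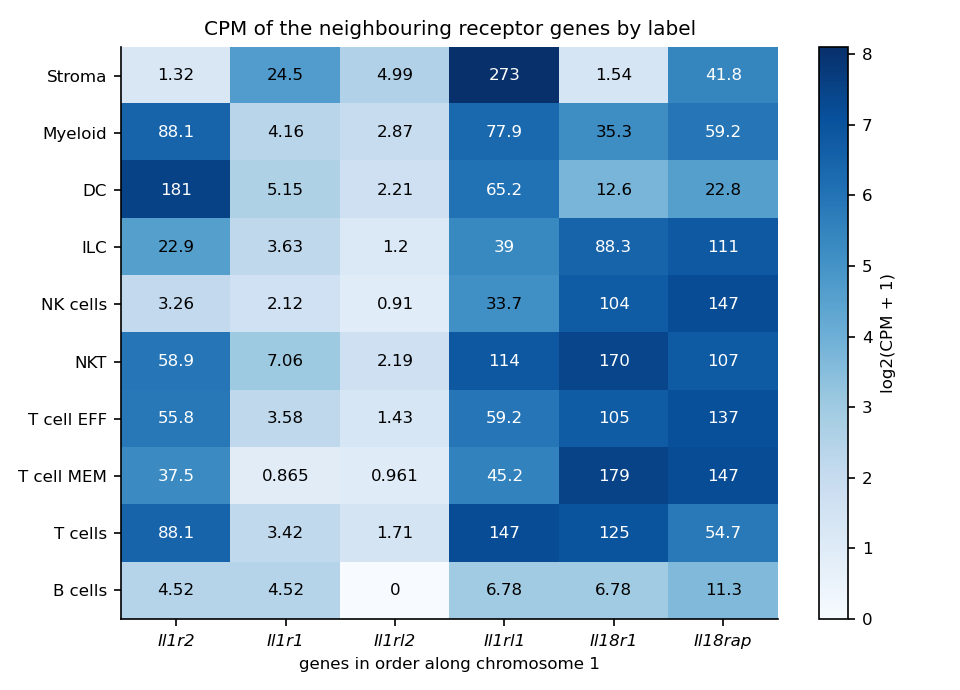
Pooled level (number in each field in CPM, shade in log2 of CPM plus 1) of the 6 receptor genes in their order along chromosome 1 (x axis) in the 10 labels (y axis). Il1rl1 has its highest value in Stroma, 273 CPM, next to an Il18r1 value of 1.54.

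Other genes of the pathway were taken from a list of 36, of which 32 were in the table and 20 reached 20 CPM in a label of at least 100 cells. Of these 20, 11 led in Myeloid cells, as did 9.85% of all 8144 genes at this level. Some of these leads were narrow, such as those of Irak2, Myd88, Gsdmd and Pycard. Of 12 processing genes 9 reached it. Nlrp3, the inflammasome sensor, had 406 CPM in Myeloid cells, 252 to 510 in the libraries, against 75.6 in DC, the next label. Pycard, the inflammasome adaptor, had 132 CPM in Myeloid cells, 127 in T cells and 5.61 in Stroma, whereas Casp1 differed less, 79.2 in Myeloid and 66.7 in Stroma. Casp4 had 117 and Gsdmd, the pore-forming substrate, 57.9 CPM in Myeloid cells. Casp8 led in NKT with 85.5, Aim2 in ILC with 54.9, Gsdme in Stroma with 25.9 and Ctsg in Myeloid cells with 24.6. The next label was close for Gsdmd, with 51.5 in DC, and for Aim2, with 53.5 in NK cells. Of the other receptors and decoys 3 of 7 reached 20 CPM. Il18bp, the soluble antagonist of IL-18, led in Myeloid cells with 85.9 CPM, 52.6 to 121 in the libraries, above the 30.8 of Il18 itself. Sigirr, an inhibitory receptor, led in NK cells with 47.2, and Il1r1 in Stroma with 24.5, 23.2 to 25.9 in the libraries. Of the other ligands, 1 of 5 in the table did, Il1f9, which encodes IL-36γ, with 27.5 CPM in Myeloid cells, 9.66 to 47.0 in the libraries. Of the signalling genes 7 of 8 reached 20 CPM. The highest were Irak1 with 84.1 in Stroma, Irak2 with 79.9 and Myd88 with 58.3 in Myeloid cells. Their next labels were close, with 79.0 in B cells, 78.1 in ILC and 55.9 in DC. Tollip had 32.3 in Myeloid cells, Map3k7 30.8 in T cells, Traf6 21.6 in DC and Irak3 20.3 in B cells, the last from few UMIs.

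Over the 38 sums of a label and a library with at least 20 cells, log2(CPM + 1) was correlated between genes as a description. The sums of a library share its depth and its free RNA. Pearson's r was 0.88 for Il1b with Il1rn, 0.79 for Il1a with Il1b, 0.79 for Il18r1 with Il18rap, and 0.45 for Il33 with Il1rl1. The gene closest to Il1a was Cxcl2, a neutrophil-attracting chemokine (r = 0.94), followed by Trem1 and Clec4e. Closest to Il1b were Gpr35 (0.95), Clec4n and Cd300a, to Il1rn Clec4d (0.95), Msr1 and Arg2, and to Il18 Milr1 (0.91), Ms4a6c and Osgin2. Il18r1 was closest to Skap1 (0.98) and Cd247, genes of T cell receptor signalling. Il18rap was closest to Npat (0.93), Dennd4c and F2r. Il1r2 was closest to Itm2c (0.87), Vamp8 and Slc15a3, Il33 to Anxa8 (0.83), Pard3 and Efna5, and Il1rl1 to Cdk16 (0.90), Cmtm4 and Rnf14.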

How the data were processed

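Droplet-based single-cell mRNA-seq (3′ v3 chemistry) was made by the authors from CD45+ bead-enriched CT26 tumor cells. The authors counted UMIs with Cell Ranger 3.0.2 on mm10 (GRCm38), kept cells above 500 UMIs and labelled each cell by the ImmGen profile it correlated with best. The deposited values are raw UMI counts per gene and cell, with a total count, a library and a label. The counts of each of the 33961 cells summed to the deposited total. No gene symbol is blank.

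Counts were summed by label and library and scaled to CPM in Python 3.11.15 (pandas 2.3.3, scipy 1.17.1, numpy 2.4.6). Log2 ratios use a pseudocount of 1 CPM. Shares were counted after thinning without replacement to 2000 UMIs, which was tested on simulated data and left out 5 to 180 cells per label of at least 100 cells. A cell carries a marker list with UMIs of 2 or more of its genes. Intervals are exact Poisson or binomial at 95%. A floor of 3 counts was computed apart from these intervals. Doublets were scored with scrublet in scanpy 1.11.5 and stayed in. Its automatic threshold called 0 cells in M5, so a score of 0.25 was used, which called 60 to 271 cells per library. Leading label means the highest pooled CPM among labels of at least 100 cells.

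No count test was run, because the libraries match no sample by name. The 9 genes are always named, pathway genes from 20 CPM, and for likeness the 3 genes of highest r per member. One of these genes for Il18r1, and one gene of a comparison list for Myeloid cells, are not reported here. Members and lists were chosen with earlier results of these data known. Alternatives changed the thinning, the cells entering, the weights, the pseudocount and the libraries. Positions are from GENCODE M21 and promoter windows from RefSeq (GRCm38.p6), which holds all 9 genes.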

Additional observations from a re-analysis of the deposited data

How the results depend on the processing

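No paired analysis was possible because no replicate number or treatment goes with any of the 4 libraries. The treatment comparison per label and its alternatives (DESeq2 size factors, no filter, replicate block, each replicate left out) were not run for the same reason. The number of genes of at least 20 CPM in their leading label was 8 under every alternative run, that with a share of at least 10% was 7 or 8, and that at least 2-fold above the next label was 5 to 7. Il1r2 (0.91 without M5, on the log2 scale) and Il1rl1 (1.05 without M1) crossed that limit. With 1 library left out, the log2 ratio of NK cells to T cell MEM for Il18rap ran from -0.068 (without M6) to 0.072 (without M1) and was -0.014 without M5, and that of T cell MEM to NKT for Il18r1 ran from -0.017 (without M6) to 0.23 (without M5). No other direction of the 63 ratios computed under alternatives turned, and all of them are ratios of pooled CPM. Of 81 levels under alternatives 43 left the 95% interval of the main value, at most 1.62-fold, and of 81 shares 39 did. With the CPM of each cell averaged, Il1b was 6703 CPM and Il1rn 709 in Myeloid cells, and Il18rap 238 in NK cells. Shares depend on depth: at 1000 UMIs they were 0.53 to 0.91 times and at 4000 UMIs 1.11 to 1.68 times those at 2000, and with no thinning Il33 was 4.32 times as frequent in Stroma, at 3.59%. The Stroma level of Il33 rests on few cells, and levels in the labels T cells and B cells mostly rest on few UMIs.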

Other observations

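The 2 labels under 100 cells, T cell Naive with 55 cells and Stem cells with 37, entered no comparison and are not described.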
